A study of Mus musculus with 2 samples.

Results

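The genes described here are the Hox genes of all 4 mouse clusters together with 7 transcription factors of limb identity, Tbx4, Tbx5, Pitx1, Prrx1, Shox2, Meis1 and Meis2. They were chosen by symbol, as the symbols made of Hox, a cluster letter and a number plus those 7. The rule uses no measured value, but it was set with earlier results of these data known. They come to 46 of the 27998 genes in the data, of which 39 are Hox genes. Hox genes code for homeodomain proteins that give cells along the body and limb axes a positional address, and their order on the chromosome follows the order of their expression domains. In the limb, the 5′ genes of HoxA and HoxD mark the upper arm, forearm and hand in turn, with Hoxa11 and Hoxd11 typical of the forearm and shank and Hoxa13 and Hoxd13 of the hand and foot. Tbx5 is the T-box gene of the forelimb, Tbx4 and Pitx1 are genes of the hindlimb, Prrx1 is a gene of limb mesenchyme, and Shox2, Meis1 and Meis2 are genes of the proximal limb.

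The samples were tendon cells of mouse limbs, fore- and hindlimbs pooled, at postnatal day 7, in 1 library labelled wild-type and 1 library labelled mutant, each from a pool of 2 pups. The mutant genotype was Tgfbr2 f/-;ScxCre, in which Cre driven by the tendon gene Scleraxis (Scx) removes the type II TGFβ receptor; this Cre is not active in every tendon cell of the embryo and reaches all of them only early after birth. Pups of both groups carried the ScxGFP reporter and the Ai14 RosaT Cre reporter. The control is labelled wild-type in its title and genotype but Het in its description, and the step that scrapes off the tissue around the tendon was left out, so that cells of the peritenon are present.

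Counts are unique molecular identifiers (UMIs), each standing for 1 captured mRNA molecule. The library labelled wild-type held 2364 cells and 9451606 UMIs, and the library labelled mutant 2592 cells and 8250248 UMIs, with 2 cell barcodes in common. Levels are given as counts per 1000000 UMIs of a cell class (CPM), with exact Poisson intervals, and ratios of CPM with exact conditional intervals, both at 95%. All intervals cover counting error only. With 1 library per group there is no spread between replicates and no test, and batch and genotype cannot be told apart. A ratio is called higher or lower where it reached 2-fold either way over at least 20 UMIs.

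Cells were sorted into classes by marker genes. Scx-high cells, with at least 30 Scx UMIs per 10000, numbered 1155 among wild-type and 232 among mutant cells. The paper states that the Scx level in these data includes that of ScxGFP, so this gate does not measure endogenous Scx alone. Scx-low fibroblasts, with at least 5 UMIs over Ly6a, Cd34, Dpt, Lum and Col3a1, numbered 720 and 1841. Mural cells of vessel walls numbered 137 and 81, endothelial cells 21 and 29, and immune cells 181 and 194. A check list of 6 tendon markers, Tnmd among them, summed to 16480 and 10883 CPM in Scx-high cells against 2244 and 2832 CPM in Scx-low fibroblasts. The mutant Scx-high cells also held 407 CPM of 6 skeletal muscle markers and 999 CPM of 6 mural markers, against 2.91 and 367 CPM in the wild-type library. Tgfbr2 itself, the targeted gene, stood at 30.4 CPM in wild-type and 45.9 CPM in mutant Scx-high cells, a ratio of 1.51 (interval 1.07 to 2.10). Counts taken at the 3′ end do not show the deletion and so do not check the label.

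To show the sequence next to the Hox genes that differed most between the libraries, the 250 bases before the RefSeq start of Hoxa7 and of Hoxa11 are printed 5′ to 3′ along the gene's strand. Both genes lie on the minus strand of chromosome 6, at chr6:52214491-52221854 for Hoxa7 and chr6:52242106-52245810 for Hoxa11 (GENCODE M21, GRCm38). The windows are chr6:52218574-52218823, which lies inside the longer GENCODE gene model of Hoxa7, and chr6:52245811-52246060. Capitals mark CAGAC on either strand, the short box bound by SMAD proteins, which carry the TGFβ signal.
Hoxa7: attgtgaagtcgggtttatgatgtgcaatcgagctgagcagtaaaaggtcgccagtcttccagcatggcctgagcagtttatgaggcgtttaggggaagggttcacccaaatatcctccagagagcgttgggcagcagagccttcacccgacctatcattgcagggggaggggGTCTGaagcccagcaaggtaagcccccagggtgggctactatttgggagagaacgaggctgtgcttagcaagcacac
Hoxa11: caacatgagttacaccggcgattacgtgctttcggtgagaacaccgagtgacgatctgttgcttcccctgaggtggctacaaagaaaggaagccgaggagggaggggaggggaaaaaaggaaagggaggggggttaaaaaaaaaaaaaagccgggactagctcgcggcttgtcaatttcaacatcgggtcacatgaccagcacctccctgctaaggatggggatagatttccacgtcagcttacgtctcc
The Hoxa7 window held 1 match and the Hoxa11 window 0. Of the 29 windows found for 27 of the 46 genes, 9 held the box, against 42.2% of 32851 windows of the same length over all genes, and 0 held TAATCC, the bicoid-type site that Pitx1 binds, against 6.25%. Matches are letters in these windows and say nothing of binding.

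Of the 46 genes, 40 had at least 1 UMI over both libraries and 6 had 0, namely Hoxa6, Hoxb1, Hoxb3, Hoxb13, Hoxc12 and Hoxd3. The 19 genes with at least 50 UMIs ranged from Hoxb2 (51 UMIs) to Prrx1 (2956 UMIs), and the other 21 had 1 to 46 UMIs each. Scx-high cells held UMIs of 33 members in the library labelled wild-type and of 30 in that labelled mutant, and Scx-low fibroblasts of 33 and 32. Summed over all 46, the level was 596 and 513 CPM in Scx-high cells, 688 and 714 CPM in Scx-low fibroblasts and 720 and 781 CPM in mural cells. In immune cells it was 33.3 and 67.3 CPM, and in haemoglobin-rich cells, which stand for RNA free in the droplets, 14.3 and 9.01 CPM. The lowest mesenchymal sum thus lay well above the highest background sum.

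**Figure D1:**
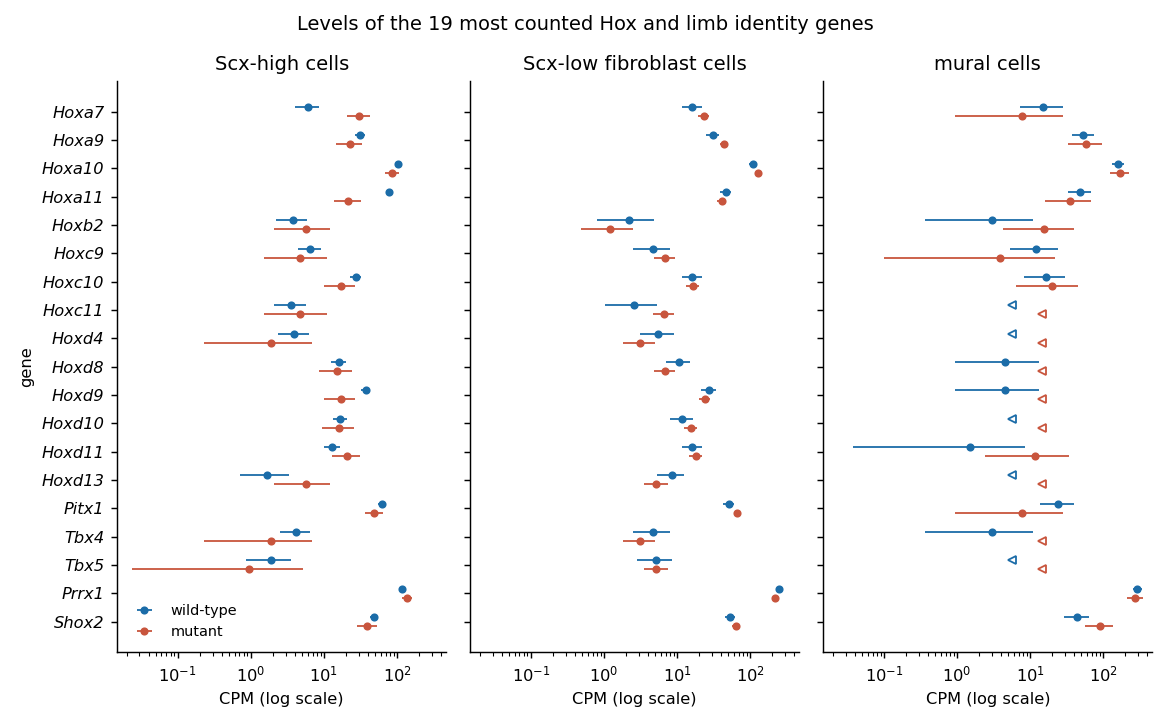
Levels of the 19 genes with at least 50 UMIs, in CPM on a log axis, in Scx-high, Scx-low fibroblast and mural cells of the wild-type (blue) and mutant (red) libraries, with 95% Poisson intervals; open triangles mark the upper limit where no UMI was counted. Hoxa7 and Hoxa11 stand apart between the libraries in Scx-high cells, and Hoxd10 and Hoxd13 have no UMI in mural cells of either library.

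Prrx1 had the highest count of the 46, with 116 and 137 CPM in Scx-high cells of the wild-type and mutant libraries, 251 and 216 CPM in Scx-low fibroblasts, and 294 and 275 CPM in mural cells. Hoxa10, a gene of the proximal and middle limb, followed with 103 and 85.3 CPM in Scx-high cells, 108 and 127 CPM in fibroblasts and 161 and 169 CPM in mural cells. It had a UMI in 31.3% of wild-type Scx-high cells, whose median depth was 4288 UMIs, and in 2.76% of immune cells, whose median depth was 2380 UMIs. The counts were read at the 3′ end of each mRNA, so gene length was not corrected for. Hoxa9, Hoxa10 and Prrx1 had no lower level in mural cells than in either of the Scx classes, in both libraries.

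The mutant and wild-type libraries were compared first in Scx-high cells, the class set by counts of Scx and its reporter. These counts do not show which mutant cells had lost the receptor, and the mutant Scx-high class may include cells that Cre had not reached. The paper reports that most cells of mutant tendons had lost the ScxGFP signal at this age. It proposes that those keeping the signal, some with weak or no RosaT, were newly recruited tendon cells. Whether the mutant Scx-high class holds such cells was not tested, so it may differ in kind from the wild-type class. Hoxa7, a gene of the middle of the HoxA cluster, was the only member called higher. It had 29 UMIs in 27 of 1155 wild-type cells, or 6.03 CPM (4.04 to 8.66), and 32 UMIs in 27 of 232 mutant cells, or 30.01 CPM (20.5 to 42.4). The ratio was 4.97 (2.91 to 8.52). Each cell held at most 2 Hoxa7 UMIs, so the count did not rest on a few cells with many UMIs. Whether the 27 mutant cells form a subgroup of their class was not tested. After thinning every cell to 1500 UMIs, the share of cells with a Hoxa7 UMI was 0.747% and 5.63%.

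Hoxa11 went the other way. It had 376 UMIs in Scx-high cells of the wild-type library, 78.2 CPM (70.5 to 86.5), and 23 UMIs in those of the mutant library, 21.6 CPM (13.7 to 32.4), a ratio of 0.28 (0.17 to 0.42). A UMI was found in 26.3% of wild-type and 9.48% of mutant Scx-high cells, and in 11.7% and 4.69% after thinning. Hoxd9, a gene of the proximal limb, was lower as well, at 37.4 and 16.9 CPM, with a ratio of 0.45 (0.26 to 0.73). Hoxd4 (0.47, 0.05 to 1.97) and Tbx4 (0.45, 0.05 to 1.86) also passed the 2-fold mark, but on 2 mutant UMIs each and with intervals that include 1.

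Of the 17 members with enough UMIs in Scx-high cells, 1 was thus higher and 4 were lower, against 13.3% higher and 7.91% lower of the 9743 genes tested. Of the 4 lower members, 2 had an interval that also excluded 1, a rule for which no share over all genes was computed. The median log2 ratio was -0.31 over the members and 0.27 over all genes tested. Relative to the median gene, the ratio of Hoxa7 was 4.11 and that of Hoxa11 0.23. Without this centring, the neighbours of these genes were closer to 1 than they were. Hoxa9 was at 0.72 (0.45 to 1.11), Hoxa10 at 0.83 (0.65 to 1.03) and Hoxd11, the HoxD counterpart of Hoxa11, at 1.60 (0.94 to 2.64). The median gene was at 1.21, above both Hoxa9 and Hoxa10. Summed over the cluster, Hoxa7 and Hoxa11 included, HoxA was at 226 CPM in wild-type and 162 CPM in mutant Scx-high cells. Prrx1 was at 1.18 (0.98 to 1.42), Shox2 at 0.81 (0.57 to 1.13) and Pitx1 at 0.79 (0.58 to 1.07).

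**Figure D2:**
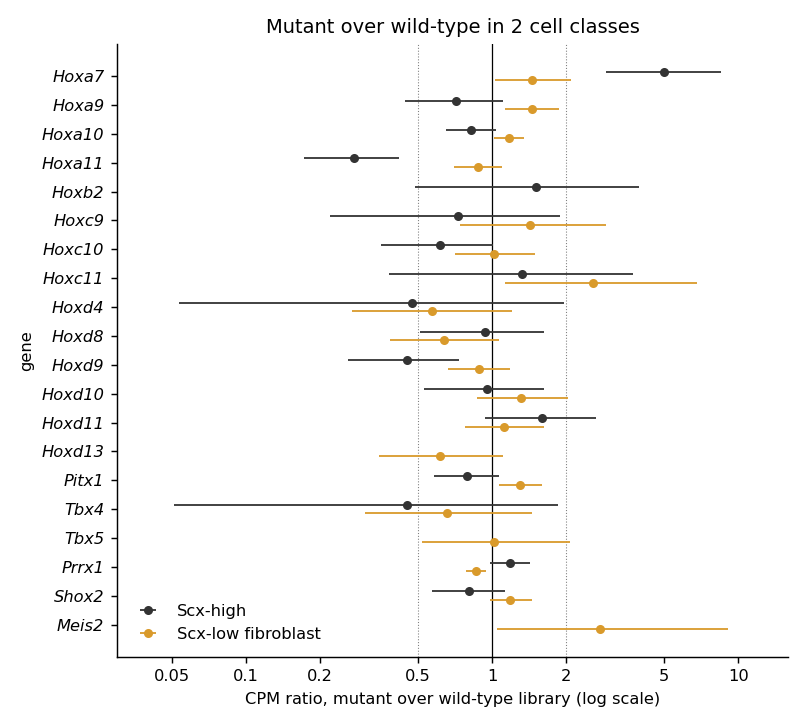
Ratio of CPM, mutant over wild-type library, on a log axis, for members with at least 20 UMIs in Scx-high cells (black) or Scx-low fibroblasts (orange), with 95% conditional intervals; the solid line marks 1 and dotted lines mark 2-fold either way. In Scx-high cells Hoxa7 lies at 4.97 and Hoxa11 at 0.28, while in Scx-low fibroblasts they lie at 1.45 and 0.88.

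The muscle and mural markers in the mutant Scx-high cells move with this comparison, and their part in it was not tested. Among Scx-high cells that also had at least 3 UMIs of Tnmd, a tendon membrane protein, the ratio of Hoxa7 was 5.05 and that of Hoxa11 0.29. Cells with a UMI of Tbx4 or Pitx1, which came from hindlimbs if these genes are kept to the hindlimb, were looked at apart from the rest, since the share of each limb in the 2 pools is not known. Hoxa11 was at 91.5 and 44.0 CPM in such hindlimb-marked Scx-high cells, a ratio of 0.48 (0.22 to 0.92), and at 74.1 and 15.5 CPM in the others, 0.21 (0.11 to 0.36). Hoxa7 was at 6.56 and 29.8 CPM in the others, a ratio of 4.54 (2.49 to 8.31). A limb mark of either kind was counted in only 21.1% of wild-type and 18.1% of mutant Scx-high cells. The others can thus include hindlimb cells without a counted mark, and their mix of limbs stays unknown.

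In Scx-low fibroblasts the ratios of these genes lay closer to 1. The 5 genes that set this class are all among those the paper lists as most raised in mutant tendon cells. The class held 30.5% of wild-type and 71.0% of mutant cells. Whether the mutant class holds former tenocytes was not tested, so it may differ in kind from the wild-type class. The 6 Schwann cell markers summed to 2.93 CPM in wild-type and 257 CPM in mutant fibroblasts and the 6 fibroblast check markers to 10236 and 6549 CPM, and their part in the values was not tested. Hoxa7 was at 16.1 and 23.4 CPM, a ratio of 1.45 (1.03 to 2.09), and Hoxa11 at 46.5 and 40.7 CPM, a ratio of 0.88 (0.70 to 1.1). The intervals of each gene's ratio in the 2 classes do not overlap. These genes were singled out by their ratios in Scx-high cells, and the share of all genes with such intervals was not computed. The gap between the classes can therefore not be called particular to them. Of 20 members tested, 2 were called higher and 0 lower, against 6.03% and 5.68% of 11118 genes, with a median log2 ratio of 0.14 for members and -0.03 for all. The higher genes were Hoxc11, a gene of the hindlimb and lower trunk, at 2.56 and 6.59 CPM (2.57, 1.13 to 6.82), and Meis2, on 5 and 29 UMIs (2.75, 1.05 to 9.09). Hoxa9 (1.45, 1.13 to 1.88), Hoxa10 (1.17, 1.02 to 1.34) and Pitx1 (1.30, 1.07 to 1.59) were above 1 by their intervals but within 2-fold, and Prrx1 (0.86, 0.78 to 0.94) was below 1.

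The list of other limb patterning genes held 47 genes, of which 46 were in the data. In Scx-high cells 17 had enough UMIs, and 4 were higher and 4 lower in the mutant library, against the 13.3% and 7.91% of all genes. Their median log2 ratio was -0.23. Prrx2, the close relative of Prrx1, was at 37.0 and 145 CPM (3.93, 3.14 to 4.90), En1 at 5.41 and 17.8 CPM (3.29, 1.72 to 6.19) and Tbx18 at 8.95 and 19.7 CPM (2.20, 1.24 to 3.79). Pbx3, a partner of Hox proteins, was at 2.00 (0.92 to 4.09). Among the lower genes, Gli2, an effector of hedgehog signalling, had 23 wild-type and 0 mutant UMIs, while Tbx2, Lmx1b and Emx2 had intervals that include 1. In Scx-low fibroblasts 27 were tested, with 2 higher and 4 lower against 6.03% and 5.68% of all genes and a median log2 ratio of -0.38. Prrx2 (2.01, 1.81 to 2.24) and Alx1 (2.64, 1.17 to 6.99) were higher, and Dlx3 (0.05, 0.01 to 0.16), Irx3 (0.29, 0.15 to 0.54), Tbx2 (0.37, 0.19 to 0.72) and Dlx5 (0.44, 0.25 to 0.77) were lower. Prrx2 therefore passed the mark in both classes where Prrx1 stayed near 1.

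Scx-low fibroblasts were next set against Scx-high cells within each library, so that batch does not enter. In the wild-type library, 4 of 20 members were higher in fibroblasts and 0 lower, against 21% and 6.15% of 10578 genes. Hoxd13 was at 8.42 CPM in fibroblasts and 1.66 CPM in Scx-high cells (5.06, 2.18 to 13.1), Tbx5 at 5.13 and 1.87 CPM (2.74, 1.104 to 7.17), Hoxa7 at 16.1 and 6.03 CPM (2.67, 1.63 to 4.43) and Prrx1 at 251 and 116 CPM (2.17, 1.94 to 2.43). Hoxa11 leaned to Scx-high cells, at 46.5 and 78.2 CPM (0.59, 0.48 to 0.73), as did Hoxc10, at 16.1 and 27.5 CPM (0.59, 0.41 to 0.83). The median log2 ratio was -0.15 over the members and 0.45 over all genes tested. Centred on the median gene, which itself was 1.37-fold higher in fibroblasts, the count became 2 higher and 4 lower. The share of all genes called after centring was not computed, so this count cannot be set against the 21% and 6.15%.

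In the mutant library Hoxa11 leaned to fibroblasts instead, and the interval of Hoxa7 included 1. Prrx1 and Tbx5 kept the order they had in the wild-type library. Both mutant classes may differ in kind from the wild-type ones, which was not tested. Hoxa11 was at 40.7 CPM in fibroblasts and 21.6 CPM in Scx-high cells (1.89, 1.23 to 3.04), and Hoxa7 at 23.4 and 30.01 CPM (0.78, 0.53 to 1.19). Of 19 members tested, Meis2 and Tbx5 were higher, on 2 and 1 Scx-high UMIs and with intervals that include 1, and Hoxd8 was lower (0.45, 0.25 to 0.86), against 14.6% and 6.03% of 10676 genes. The median log2 ratio was 0.53 over the members and 0.12 over all genes tested. Tbx5 was the 1 member of 18 higher in both libraries, against 6.5% of all genes, and 0 were lower in both, against 1.67%. Among the 47 patterning genes, 12 of 25 in the wild-type and 12 of 24 in the mutant library were higher in fibroblasts and 0 lower, against the 21% and 6.15%, and 14.6% and 6.03%, of all genes, with Meis3, Tbx15, Twist2, Msx1 and Prrx2 past the mark in both.

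Vessel wall cells carried HoxA and HoxC but hardly any HoxD. Summed over each cluster, HoxA stood at 277 and 286 CPM in mural cells of the wild-type and mutant libraries, against 208 and 242 CPM in Scx-low fibroblasts. HoxC stood at 54.6 and 74.6 CPM in mural cells, against 28.2 and 35.7 CPM in fibroblasts. HoxD stood at 10.6 and 11.8 CPM in mural cells, from 7 and 3 UMIs, against 80.5 and 73.9 CPM in fibroblasts. Hoxd10 had 0 mural UMIs in either library, where fibroblasts had 32 and 89, and Hoxd9 had 3 and 0 mural UMIs, where fibroblasts had 74 and 138. Of 14 members, 5 (Hoxd8, Hoxd9, Hoxd10, Hoxd13 and Pitx1) were lower in mural cells than in fibroblasts in both libraries and 0 were higher, against 7.56% and 6.09% of 9188 genes. For Hoxd8 in both libraries and Hoxd13 in the mutant library the depth does not set this apart from equal levels. Pitx1 was at 24.2 and 7.85 CPM in mural cells, with ratios of 0.48 (0.27 to 0.80) and 0.12 (0.01 to 0.43).

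**Figure D3:**
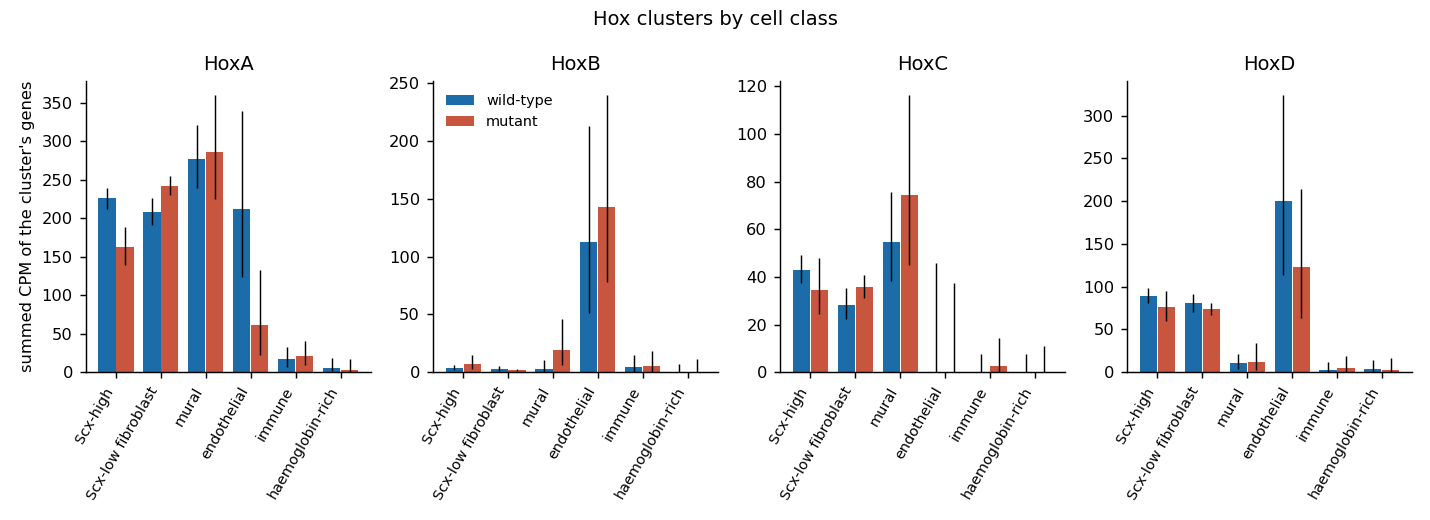
Summed CPM of each Hox cluster's genes by cell class, each panel with its own axis, wild-type library in blue and mutant in red, with 95% Poisson intervals. HoxD is at 10.6 and 11.8 CPM in mural cells where HoxA is at 277 and 286 CPM, and HoxB reaches 112 and 143 CPM in endothelial cells and stays below 20 CPM elsewhere.

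Summed, HoxB genes were counted at a higher level in endothelial cells than in the other classes, beside HoxA at 212 and 61.2 CPM and HoxD at 200 and 122 CPM in the same endothelial cells. HoxB genes are known for the trunk and hindbrain rather than the limb, and their summed level was 3.95 and 7.50 CPM in Scx-high cells and 2.93 and 1.56 CPM in fibroblasts, but 112 and 143 CPM in endothelial cells. Hoxb4 to Hoxb9 gave 8 UMIs in 8 of 21 endothelial cells of the wild-type library, 38.1% (exact binomial interval 18.1 to 61.6%), and 14 UMIs in 8 of 29 of the mutant library, 27.6% (12.7 to 47.2%). In all other cells they were found in 6 of 2343 and 9 of 2563 cells, 0.256% and 0.351%. Of the 1236 UMIs of Schwann cell markers in that mutant class, 1228 lay in 2 cells, and without these cells the share was 29.6%. These cell counts and shares leave out Hoxb2, the most counted HoxB gene, with 30 and 21 UMIs over all cells. Nearly all Hoxb2 UMIs lay outside endothelial cells, so the contrast in shares is one of Hoxb4 to Hoxb9 only. The whole cluster had 44 and 46 UMIs over all cells, of which 9 and 14 were endothelial. HoxC was at 0 in the endothelial cells of both libraries, which allows up to 46.0 and 37.7 CPM.

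The endothelial cells also kept a middle part of HoxA and HoxD. Hoxa7 was at 99.8 and 40.8 CPM, Hoxd4 at 62.4 and 30.6 CPM and Hoxd8 at 62.4 and 30.6 CPM, from 3 to 8 UMIs each. Over fibroblasts, 4 of 14 members were higher and 8 lower in the wild-type library, against 18.2% and 29.2% of all genes, and 2 of 18 were higher and 12 lower in the mutant library, against 21.9% and 30.6%. The ratio of Hoxd4 was 11.4 (3.23 to 32.9) and 9.81 (1.85 to 33.6). Prrx1, Pitx1, Shox2 and Hoxa11 had 0 UMIs in the endothelial cells of both libraries. For Prrx1, which had 251 and 216 CPM in fibroblasts, the upper limit of the ratio was 0.18 in each library. With 21 and 29 cells these levels rest on few molecules.

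Whether fore- and hindlimb genes kept apart was read per cell, in Scx-high cells and Scx-low fibroblasts together. In the wild-type library 23 of 1875 cells had a UMI of Tbx5 and 357 a UMI of Tbx4 or Pitx1, with 2 cells holding both. In the mutant library 29 of 2073 cells had Tbx5 and 338 had Tbx4 or Pitx1, with 0 cells holding both. If the marks were unrelated within 5 bins of UMIs per cell, 4.84 and 5.21 shared cells would be counted. The observed count over that number was 0.41 (0.05 to 1.49) in the wild-type library, which includes 1, and 0 (up to 0.71) in the mutant library. Tbx4 and Pitx1 shared 7 cells in each library, where 6.50 and 3.39 would be counted (1.08, 0.43 to 2.22, and 2.06, 0.83 to 4.25).

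Hindlimb-marked cells made up 94.4% (91.6 to 96.5%) of the cells with 1 kind of mark in the wild-type library and 92.1% (88.8 to 94.6%) in the mutant library. This is not the share of hindlimb cells, because Pitx1 gave 906 UMIs, Tbx4 55 and Tbx5 57. With Tbx4 alone as the hindlimb mark, which is counted about as often as Tbx5, the shares were 58.5% and 40.8%. In mural cells 14 and 2 cells carried a hindlimb mark and 0 a forelimb mark.

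**Figure D4:**
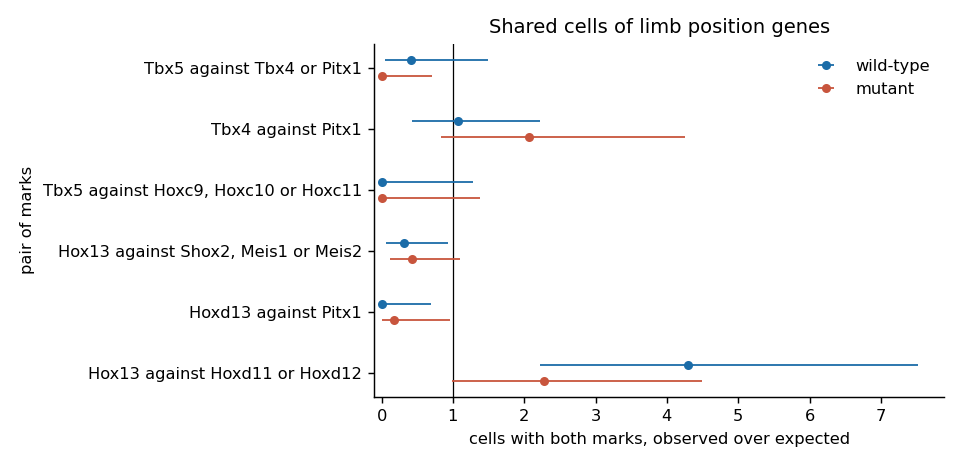
Cells holding both of 2 marks, as the observed count over the count given by unrelated marks within 5 bins of UMIs per cell, for 6 pairs of marks in the wild-type (blue) and mutant (red) libraries, with 95% Poisson intervals; the line marks 1. Hoxd13 and Pitx1 lie at 0 and 0.17, and Hox13 with Hoxd11 or Hoxd12 at 4.30 and 2.28.

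Hoxc10 and Hoxc9 were the HoxC genes called with the hindlimb marks in both libraries, while Hoxc11 was not. Hoxc10, which is expressed in the hindlimb bud, had 69 and 45 UMIs in hindlimb-marked cells of the wild-type and mutant libraries and 0 in each library's forelimb-marked cells, which numbered only 21 and 29. It was the 1 of 8 members called higher over forelimb-marked cells in both libraries, against 4.26% of 5872 genes, and 0 were lower, against 1.38%. The depth of the forelimb-marked cells in the wild-type library, 88980 UMIs, leaves an interval whose lower end is 0.997. The 2 sides also differed in cell class. In the wild-type library 235 of 355 hindlimb-marked but 7 of 21 forelimb-marked cells were Scx-high. In the mutant library 41 of 338 and 1 of 29 were. Scx itself was at 1.23 and 13.9 over forelimb-marked cells. The part of cell class in these calls was not tested.

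Against all cells without a hindlimb mark, a larger side, Hoxc10 was at 42.0 against 18.1 CPM in the wild-type library (2.32, 1.69 to 3.17) and 36.3 against 12.2 CPM in the mutant library (2.98, 2.00 to 4.41). Hoxc9 was at 11.6 against 4.24 CPM (2.73, 1.42 to 5.16) and 12.1 against 5.18 CPM (2.33, 1.16 to 4.49). These were 2 of 15 members higher in both libraries, against 0.307% of 10090 genes. Hoxd13 was the 1 member lower in both, against 0.555%, with 1 UMI in hindlimb-marked cells of each library against 30 and 35 in the rest (0.12, up to 0.72, and 0.13, up to 0.77). Within classes, Hoxc10 was at 2.74 and 4.62 in Scx-high cells and at 1.01 and 2.74 in Scx-low fibroblasts, the wild-type fibroblast ratio lying next to 1. Hoxc9 was at 2.63 and 0.92 in Scx-high cells and at 2.83 and 2.63 in fibroblasts. With Tbx4 alone as the mark, found in only 32 wild-type and 20 mutant cells, Hoxc9 was at 1.07 and 0 and Hoxc10 at 1.62 and 2.19. With that mark Hoxd13 turned to 1.53 (0.04 to 9.18) in the wild-type library and was at 0 (up to 8.68) in the mutant library. Hoxa11 (1.30, 1.06 to 1.59, and 1.25, 0.91 to 1.69), Prrx1 (0.97 and 0.84) and Shox2 (0.94 and 1.28) stayed within 2-fold.

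The hindlimb-marked cells also differed in depth and in cell cycle genes. Their median depth was 4488 wild-type and 3219.5 mutant UMIs per cell, against 3841 and 2916 over cells without Pitx1 or Tbx4. Of the list of patterning genes, Isl1, a gene of the hindlimb field, was at 3.94 (2.08 to 7.48) in the wild-type library and 1.92 (1.02 to 3.46) in the mutant library, where it was not called. Emx2 was at 0.34 (0.12 to 0.77) and 0.46 (0.18 to 0.99). En1 was also called lower in the wild-type library (0.38, 0.13 to 0.88). In the mutant library Dlx5 was higher (2.25, 0.94 to 5.05), and Lmx1b (0.23, 0.01 to 1.41), Gli2 (0.32, 0.04 to 1.28) and Alx1 (0, up to 0.41) were lower. All other genes were ranked by the counting bound nearest 1 of the 2 libraries, an order that is not that of the ratios. Over unmarked cells, the dividing-cell genes Dlgap5, Cenpa, Mki67, Birc5 and Top2a led the higher side, with Mki67 at 3.03 and 3.26. The fibroblast genes Cxcl14 and Gsn led the lower side, with Gsn at 0.61 and 0.61. Against forelimb-marked cells, Lockd, Cenpa, Tnmd, Cdk1 and Ube2c led the higher side, with Tnmd at 1.69 and 4.37. Tppp3, Nbl1, Pi16, Anxa8 and Tmem100 led the lower side. The part of depth and of these genes in the HoxC values was not tested.

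**Figure D5:**
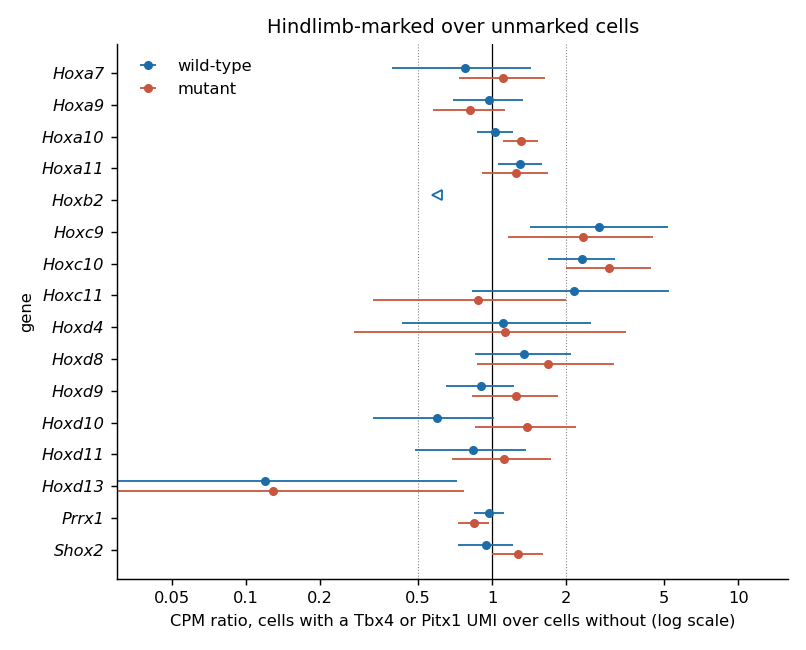
Ratio of CPM in cells with a Tbx4 or Pitx1 UMI over cells without, on a log axis, for the other named members with at least 20 UMIs, wild-type in blue and mutant in red, with 95% conditional intervals; the open triangle is an upper limit at 0 UMIs and the intervals of Hoxd13 run past the left edge. Hoxc9 and Hoxc10 lie above 2 and Hoxd13 at 0.12 and 0.13 in both libraries.

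The same pairing appeared when each pair of the 19 named members was read within class and depth. Of 171 pairs, 73 had at least 5 shared cells to be counted in each library, with a median observed over unrelated count of 1.02 for wild-type and 1.09 for mutant cells. Hoxc10 and Pitx1 shared 53 cells where 31.3 would be counted and 37 where 18.0 would be (1.69, 1.27 to 2.21, and 2.05, 1.44 to 2.83). Hoxc9 and Pitx1 shared 17 cells against 8.58 and 13 against 6.69 (1.98, 1.15 to 3.17, and 1.94, 1.04 to 3.33). Among the 73 pairs these 2 were above 1 by their intervals in both libraries and 0 were below 1. Hoxd13 and Pitx1, left out of the 73 because 4.92 shared cells would be counted in the wild-type library, were below 1 by their intervals in both, with 0 shared cells (up to 0.75) and with 1 against 5.89 (0.17, up to 0.95). These values and those of the hindlimb-marked cells come from the same cells and are not independent.

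The genes of the hand and foot marked a small set of cells. Hoxa13 or Hoxd13 had a UMI in 52 of 1875 wild-type and 53 of 2073 mutant cells. Of these, 3 and 4 also had a UMI of the proximal genes Shox2, Meis1 or Meis2, where 9.47 and 9.31 would be counted if unrelated (0.32, 0.07 to 0.93, and 0.43, 0.12 to 1.1). The wild-type value lies below 1 by its interval and the mutant value does not. Hoxd11 or Hoxd12, the next genes of the HoxD cluster, were found in 12 and 8 of them, where 2.79 and 3.51 would be counted (4.30, 2.22 to 7.51, and 2.28, 0.98 to 4.49). Hoxa13 or Hoxd13 shared 4 and 3 cells with Pitx1, where 9.99 and 8.62 would be counted. The ratios, 0.40 (0.11 to 1.03) and 0.35 (0.07 to 1.02), have intervals that include 1. Hoxd13 alone shared 0 and 1 cells with Pitx1, where 5.34 and 5.78 would be counted (0, up to 0.69, and 0.17, up to 0.96). Hoxa13 and Hoxd13 shared 0 cells in either library, but only 0.34 and 0.29 would be counted, so this was not detectable at this depth.

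In levels, the cells with a Hoxa13 or Hoxd13 UMI held more Hoxd11, at 46.3 against 13.01 CPM in the wild-type library (3.56, 1.72 to 6.66) and 39.6 against 17.8 CPM in the mutant library (2.23, 0.94 to 4.53). This was 1 of 17 members higher in both libraries, against 0.862% of 10090 genes. Lower in both were 4 of 17, against 4.11%. Shox2 was at 12.6 against 51.6 CPM (0.24, 0.05 to 0.72) and 19.8 against 60.9 CPM (0.33, 0.09 to 0.84), and Pitx1 at 21.1 against 58.8 CPM (0.36, 0.12 to 0.84) and 14.9 against 65.0 CPM (0.23, 0.05 to 0.67). Hoxc9 and Hoxc11 had 0 UMIs in these cells, a depth that does not set them apart from equal levels. Hoxa11 (0.88 and 0.65) and Prrx1 (1.13 and 1.02) stayed within 2-fold.

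Scx-low fibroblasts themselves held cells with at least 3 UMIs of Tnmd. The mutant class may hold former tenocytes, which was not tested, so the 2 libraries may not be alike here. In the wild-type library such cells had more Hoxd9, at 65.8 against 18.4 CPM (3.58, 2.19 to 5.80), and Hoxd10, at 33.9 against 6.73 CPM (5.04, 2.37 to 10.8), and Hoxd8 was at 2.00 (0.80 to 4.60). In the mutant library Hoxd9 was at 22.1 against 24.6 CPM (0.90, 0.60 to 1.32) and Hoxd10 at 18.4 against 14.3 CPM (1.29, 0.80 to 2.04). Pitx1 was above 1 in both, at 1.55 (1.03 to 2.29) and 1.57 (1.27 to 1.94). Hoxa7 was lower with Tnmd in the wild-type library, on 3 UMIs (0.33, 0.06 to 1.02), and at 0.55 (0.34 to 0.86) in the mutant library. Of 13 members in the wild-type library, 3 were called higher and 1 lower with Tnmd, against 4.55% and 10.5% of all genes. Of 17 in the mutant library, Hoxc9 was higher (2.41, 1.22 to 4.76) and Hoxd13 lower on 4 UMIs (0.39, 0.10 to 1.13), against 1.7% and 5.24%.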

How the data were processed

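The authors aligned reads from 10x 3′ libraries to mm10 with Cell Ranger, version 2.0 by the methods and 1.2.0 by the submitters' processing notes, and deposited UMI counts per gene and cell without normalization. Here all barcodes were used and no doublets were removed (Scrublet in scanpy marked 26 wild-type and 8 mutant cells, and leaving them out was an alternative). Immune, endothelial and mural cells needed at least 3 UMIs over at least 2 of 6 marker genes, cells past 2 gates were left out as mixed, and cells with over 50% haemoglobin UMIs gave the background. UMIs were summed per class and library and scaled to CPM. The members and the marker and patterning lists were chosen with earlier results of these data known, and so were the named genes: members with at least 50 UMIs, called patterning genes, and the 5 other genes in each direction ranked by the smaller counting bound. Comparisons with unmarked cells, of mural and endothelial cells, by Tnmd and by pairs were added after the data had been seen. Alternatives were other gates, filters, scalings, folds and marks. Counting of shared cells and ratios was tested on simulated data. Exons of 6 of the 19 named members overlap another gene on their strand in GENCODE M21 (Hoxa9, Hoxc10, Hoxd4, Hoxd10, Hoxd11, Pitx1), and reads shared by such genes are not counted. Promoters are from RefSeq, GRCm38.p6. Python 3.11.15, NumPy 2.4.6, SciPy 1.17.1 and scanpy 1.11.5 were used.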

Additional observations from a re-analysis of the deposited data

Results flagged for a closer look

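Cells outside every gate were left out of the comparisons. In each library they held a different Hox gene at over 2 times its level in Scx-high cells and in Scx-low fibroblasts. In the 38 such cells of the wild-type library Hoxa9 was at 155.8 CPM, from 13 UMIs, against 31.4 and 30.8 CPM in those classes. In the 127 of the mutant library Hoxc9 was at 34.15 CPM, from 10 UMIs, against 4.69 and 6.76 CPM. Neither gene was flagged in the other library. The share of all genes passing this rule was not computed, so the excess cannot be called particular to these genes. Summed over all 46 members, Scx-high cells were at 596 and 513 CPM and Scx-low fibroblasts at 688 and 714 CPM. Cells outside every gate were at 827 CPM in the wild-type and 290 CPM in the mutant library, the latter below both classes. In these cells the tendon check markers summed to 7034 and 1069 CPM and the fibroblast check markers to 1546 and 2316 CPM. They also held 4074 and 4809 CPM of skeletal muscle markers and, in the mutant library, 22158 CPM of Schwann cell markers. The part of all these markers in the values was not tested.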

How the results depend on the processing

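No paired analysis was possible because each group is 1 library. Over 23 alternatives, 563 values were recomputed: 495 stayed within their counting interval or within 1.5 times the count, 65 moved further and 3 reversed. Part of the 495 was fixed in advance. Changes of the minimum UMIs, the fold called or the interval rule leave every ratio as it was. The fibroblast gate likewise cannot change ratios within Scx-high cells. The tally is therefore not a measure of stability. A reversal was counted only where a ratio of at least 2-fold either way crossed 1. Smaller ratios could cross 1 without it, as did mutant over wild-type Hoxd9 in Scx-low fibroblasts, from 0.76 to 1.05. In Scx-high cells the mutant over wild-type ratio of Hoxa7 ranged from 3.90 to 5.42, of Hoxa11 from 0.23 to 0.29 and of Hoxd9 from 0.37 to 0.52. With 1 library per group, no alternative bears on the spread between animals.

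The reversed values were Hoxc9 in hindlimb-marked over unmarked cells of the mutant library, 0.92 in Scx-high cells alone and 0 with Tbx4 alone as the mark, and Hoxd13 in the wild-type library, 1.53 with Tbx4 alone. Only 32 wild-type and 20 mutant Scx-high cells or Scx-low fibroblasts had a Tbx4 UMI, so the values with Tbx4 alone rest on few molecules. Counts of members changed as follows. The share of all genes called was not computed under any of these alternatives. The counts therefore show only how the calls depend on the rule. For mutant over wild-type in Scx-high cells, the count lower was 2 with an Scx gate of 60, with at least 50 UMIs, with intervals past 1 and, chosen after seeing the data, with Tnmd required, and the count higher was 2 with at least 10 UMIs and 3 at 1.5-fold. In Scx-low fibroblasts the count lower was 1 with the gate of 60 and 4 at 1.5-fold, and the count higher was 4 with at least 10 UMIs and 0 with at least 50. For Scx-low over Scx-high in the wild-type library, the count lower was 1 with an Scx gate of 15 or the mean of cells, 3 without the 20 most abundant genes, 4 centred on the median gene or at 1.5-fold and 2 with at least 10 UMIs, and the count higher was 2 when centred or with at least 50 UMIs. In the mutant library the count higher was 6 with the gate of 60, 5 by the mean of cells, 8 at 1.5-fold and 0 with at least 50 UMIs or intervals past 1, and the count lower was 3 with at least 10 UMIs.

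For hindlimb- over forelimb-marked cells, the count higher in both libraries was 2 with at least 10 UMIs, at 1.5-fold or with Pitx1 alone as the mark, and 0 with at least 50 UMIs, intervals past 1 or Tbx4 alone, and the count lower was 1 at 1.5-fold. Over unmarked cells, the count higher was 1 with at least 50 UMIs and 0 in either class alone or with Tbx4 alone, and the count lower was 2 with at least 10 UMIs and 0 with at least 50 or in Scx-high cells alone. The observed over unrelated count of Tbx5 and hindlimb marks in the wild-type library was 0 in fibroblasts alone or after thinning to 1500 UMIs. With Tbx4 alone it was 2.17 (0.05 to 12.1), which rests on 1 shared cell and includes 1. That of Hox13 and proximal genes was 0 in both libraries with 2 UMIs needed for a mark, and 0 in Scx-high cells alone of the mutant library. The hindlimb-marked share in the wild-type and mutant libraries was 100% and 97.9% with 2 UMIs needed, 97.1% and 97.6% in Scx-high cells alone, and 58.5% and 40.8% with Tbx4 alone. In wild-type fibroblasts alone it was 89.6%. For these changes the cause was not tested.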
